A study of Drosophila melanogaster with 2 samples.

Results

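The gene sbb (scribbler, also called brakeless; FBgn0285917) had more reproducible summits of Groucho in and around it than any other protein-coding gene, by the list the authors made from both replicates. Sites of Groucho were mapped by ChIP-seq in embryos of Drosophila melanogaster, collected whole from 0 to 24 h of age and with both sexes together. The embryos came from a transgenic line that expresses gro fused at its C-terminus to GFP, and chromatin sonicated to between 200 and 800 bp was precipitated with an antibody against GFP. The design held 1 group with 2 biological replicates, which the labels number 1 and 3. Both replicates share the line, the tag and the antibody. No precipitate from untagged embryos was analysed here, so recovery that depends on the tag or antibody alone cannot be told apart from binding. The embryos span all of embryogenesis and all cell types, so binding in few cells and weak binding in many cells cannot be told apart either.

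The members described here were the summits in sbb or within 5 kb of either end. A summit is the position of highest signal in a region. The authors deposited a list of 30000 regions called from both replicates pooled and a list of 4492 regions kept by the irreproducible discovery rate (IDR), called IDR peaks here. Of these, 69 pooled summits and 16 IDR summits lay in sbb or within 5 kb; over the whole list 15.0% of pooled regions were IDR peaks. The gene was chosen because it has most IDR summits, and the IDR peaks are exactly the 4492 pooled regions of highest signal, so its counts and pooled signals are descriptions without a test. The pooled signal has no stated scale and is used to order sites. The regions just inside the IDR threshold in sbb had pooled signals of 84.8 and 89.0 and the highest below it had 72.7, with the lowest IDR peak of the whole list at 80.6.

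Groucho is a corepressor that does not bind DNA itself. DNA-binding repressors recruit it through short peptide motifs, and it acts with histone deacetylases to hold target genes silent. The protein encoded by sbb is itself a nuclear corepressor: it works with the corepressor Atrophin and the nuclear receptor Tailless in the early embryo, represses the Dpp receptor gene tkv in the wing disc, and is needed for photoreceptor axons to stop in the correct layer of the brain. Its transcripts encode a short and a long form of the protein.

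In dm6, sbb lies on the minus strand of arm 2R from 18278198 to 18357296 and spans 79.1 kb. It has 7 annotated transcripts, with equal ends in RefSeq and Ensembl, that start at 2 TSSs. The 5′ TSS is the gene's outer end and serves the long transcripts sbb-RD, sbb-RE, sbb-RF, sbb-RG and sbb-RJ. The internal TSS lies 68535 bp downstream and serves sbb-RC and sbb-RH. A single intron of 65.6 kb (2R, 18289851 to 18355499) takes up 83.0% of the span, interrupted in sbb-RD alone by a small exon 51161 bp from the 5′ TSS. The gene holds 8 nested protein-coding genes: Tango8, CG14505, CG18540, CG18539, CG18538, CG18537, CG18536 and CG14502. Beyond its 3′ end, pen-2, which encodes a γ-secretase subunit, overlaps it, and Ote, which encodes the inner nuclear membrane protein Otefin, starts nearby.

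Most Groucho sites of sbb lay in its long intron, more of them toward its 5′ end, and few lay within 500 bp of a TSS. Of the 16 IDR summits, 14 (87.5%) lay in introns and 2 within 500 bp of a TSS, or 12.5%, against 62.6% of all IDR summits near a TSS. The pooled regions of the same window had 87.0% in introns and 5.80% within 500 bp of a TSS. The low share near a TSS was thus shared by all regions of the window. Apart from the 2 IDR summits near a TSS, which were not classed further, none lay in coding sequence or in a UTR. The long intron held 14 IDR summits. Between the first exon and the end of CG14505 it carried 2.52 IDR summits per 10 kb over 51.5 kb, and this stretch includes the nested gene Tango8. The remaining 14.1 kb of the intron, which holds CG14505, CG18536 to CG18540 and most of CG14502, carried 0.708 per 10 kb. The 11.7 kb of the 3′ exons carried 1 IDR summit, that of the internal promoter, and the 5 kb beyond the 3′ end had 0. Numbered from the 5′ end, the IDR peaks are called site 1 to site 16 below.

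**Figure D1:**
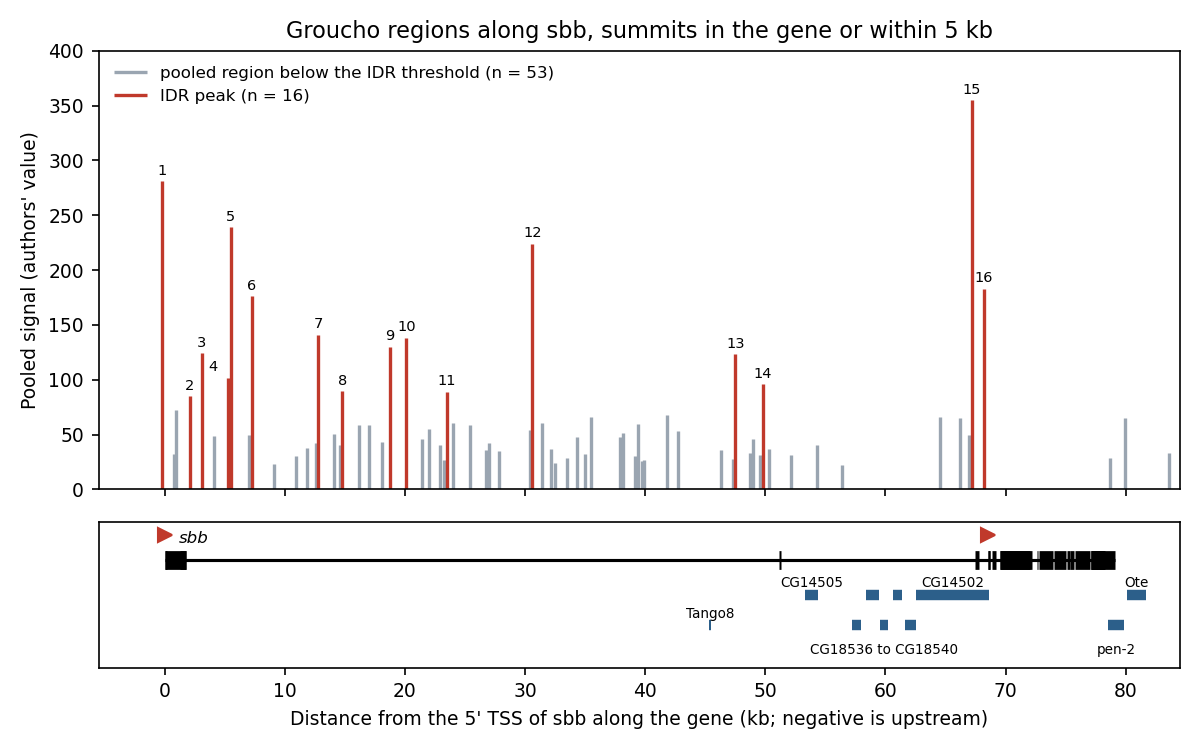
Pooled signal of the 69 pooled regions of sbb (vertical lines, y axis, the authors' value) by the distance of their summit from the 5′ TSS in kb (x axis), with the 16 IDR peaks in red and numbered and 53 regions below the IDR threshold in grey. Below it, black boxes are sbb exons, red arrowheads its 2 TSSs and blue bars the other genes; sites 1 and 16 sit at the TSSs, 13 IDR peaks lie in the long intron upstream of CG14505, 11 of them before Tango8, and the highest, site 15, stands at 355.

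The 5′ promoter carried the second-highest site of the gene. Site 1 (2R, 18357329 to 18357598) had its summit 224 bp upstream of the 5′ TSS, a pooled signal of 281, and signals of 119 in replicate 1 and 160 in replicate 3. Its place in the order of signals was 279 of the replicate 1 list and 295 of the replicate 3 list, so both replicates had it near the top. A further region of replicate 3, with its summit 753 bp downstream of the TSS, had a signal of 44.0 and rank 4471 in that list and overlapped no IDR peak. Upstream of site 1 the next pooled summit was 16883 bp from the 5′ TSS and the next IDR summit 56558 bp away. Annotated transposable elements start 1168 bp upstream of the TSS and fill 76.7% of the 5 kb flank; their part in the lack of regions there was not tested.

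A dense group of sites followed in the start of the long intron. Sites 2 to 6 lay between 2083 and 7250 bp from the 5′ TSS, in 5 neighbouring peaks. Site 5 (2R, 18351628 to 18351853) was the highest of them with a pooled signal of 239, and 147 in replicate 1 and 93.1 in replicate 3. Site 6 (2R, 18349841 to 18350250) had a pooled signal of 176 and nearly equal replicate signals of 86.5 and 84.7. The other members of the group were weaker in the pooled list, and sites 2 and 4 were uneven between replicates. The regions of sites 4 and 5 overlap, with summits 210 bp apart. Joining summits closer than 500 bp left 15 IDR summits in the window in place of 16. Site 4 had 85.5 in replicate 1 and 36.5 in replicate 3, where its rank was 6112 of 30000. Site 2 had the opposite order, with 27.9 in replicate 1, rank 9375, and 63.0 in replicate 3, rank 2255. Site 3 was more even, with 63.7 and 73.7.

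Farther into the intron 6 sites were spaced by 1353 to 7108 bp, far from any annotated start. Sites 7 to 12 lay between 12796 and 30596 bp from the 5′ TSS. Site 12 (2R, 18326619 to 18326748) stood out among them with a pooled signal of 224 and replicate signals of 96.9 and 128; the nearest TSS, that of the nested gene Tango8, was 14878 bp away. Site 7 had replicate signals of 52.6 and 89.0, and site 10 had 47.3 and 98.2, both higher in replicate 3. Site 11 was higher in replicate 1, at 68.7 against 28.1, but the overlapping region of replicate 3 had its summit 112 bp away. That region lay closer, at 88 bp, to the summit of a neighbouring pooled region below the threshold. Sites 8 and 9 differed less, with 44.1 and 51.3 at site 8 and 61.4 and 72.1 at site 9. Site 12 was thus the one site of this stretch among the 4 highest of the gene in both replicates.

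The part of the gene around Tango8 held 2 weaker sites between long gaps. Sites 13 and 14 lay 47501 and 49785 bp from the 5′ TSS. Their replicate signals were 66.5 and 58.1 at site 13 and 35.2 and 64.5 at site 14. The gap of 16905 bp before them and that of 17389 bp after them were the longest between neighbouring IDR summits of the gene. The second of these gaps runs over CG14505 and the genes from CG18540 to CG18536.

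The highest site of sbb lay near its internal promoter and near the start of a nested gene. Site 15 (2R, 18289914 to 18290283) had a pooled signal of 355, rank 151 of the whole list, and signals of 211 in replicate 1 and 150 in replicate 3. Its summit was 902 bp from a TSS of CG14502, a nested gene on the opposite strand, and 1361 bp from the internal TSS of sbb. Site 16 (2R, 18289084 to 18289220) had a pooled signal of 183 and signals of 93.7 and 85.2; its summit lay between both starts, 103 bp from a TSS of CG14502 and 356 bp from that of sbb. The distances place both sites closer to CG14502 than to sbb, and ChIP-seq regions do not say which gene a site serves. Site 1 is thus the one IDR summit within 500 bp of a TSS of sbb and of no other gene.

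Besides CG14502, the promoters of nested and neighbouring genes carried no IDR peak. Of the 10 other genes with a TSS in the window, CG14502 was the 1 with an IDR summit within 500 bp. A pooled region below the threshold lay at the divergent start of pen-2 and Ote, 50 bp from the TSS of pen-2, with a pooled signal of 64.9 and signals of 29.6 in replicate 1 and 41.1 in replicate 3. Another lay 387 bp from a further TSS of CG14502, with a pooled signal of 66.1. The nearest pooled summit to Tango8 was 876 bp from its TSS, and those of CG18536 to CG18540 were at 1561 to 3808 bp. When the 2 sites nearest to a TSS of CG14502 were left out, 14 IDR summits remained, against 13 for the genes next in the order.

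Each site of sbb had a region in both replicate lists, with signals that differed in either direction. All 16 IDR peaks overlapped a region in each list, but so did 4473 of all 4492 IDR peaks, so little is read from this overlap. At 12 of the 16 sites the region was among the 4492 highest of its list in both replicates, against 64.8% of all IDR peaks. Sites 2 and 14 ranked lower than that in replicate 1, and sites 4 and 11 in replicate 3. The replicate summits lay a median of 7.5 bp (replicate 1) and 18 bp (replicate 3) from the pooled summit. The signal was higher in replicate 3 at 9 of 16 sites, against 63.9% of all IDR peaks found in both lists. The median log2 ratio of replicate 3 to replicate 1 was 0.21 in sbb and 0.22 over all IDR peaks, with a range from -1.29 to 1.17 in sbb. Both replicates placed sites 1, 5, 12 and 15 among the 5 highest of the gene. Mean signals of the 4 were 139 ± 28.5, 120 ± 38.3, 112 ± 21.7 and 180 ± 42.8 (SD, n = 2). Site 15 was above sites 5 and 12 in both replicates and site 1 above site 12, whereas the order of sites 15 and 1, of 1 and 5 and of 5 and 12 differed between replicates. Site 2, at 45.5 ± 24.8, and site 8, at 47.7 ± 5.05 (SD, n = 2), were the lowest by this mean. Over the 16 sites the replicate signals had a Spearman's rho of 0.53, and over all matched IDR peaks 0.46; the points share the libraries, and IDR peaks are a narrow range of signal.

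**Figure D2:**
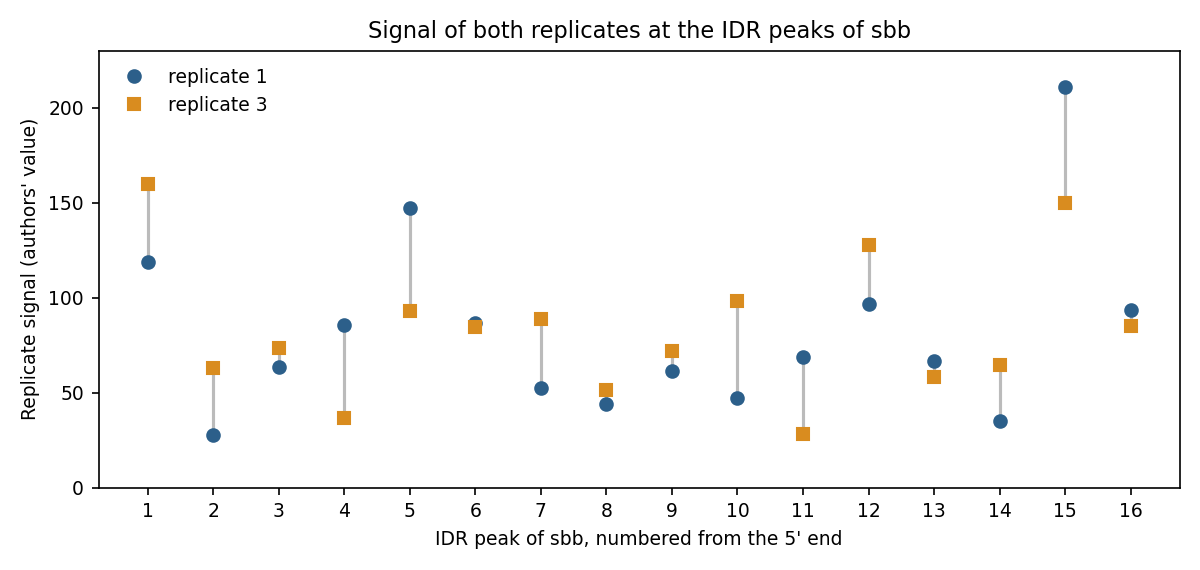
Signal of the overlapping region in replicate 1 (blue circles) and replicate 3 (orange squares), in the authors' value (y axis), at the 16 IDR peaks of sbb in order from the 5′ end (x axis), with a grey line joining both values. Sites 1, 5, 12 and 15 are high in both replicates, and sites 4 and 11 are higher in replicate 1 while sites 2, 7, 10 and 14 are higher in replicate 3.

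Each replicate's own list gave the same number of sites with partly other positions. Among the 4492 highest regions of each replicate, 16 lay in the sbb window in replicate 1 and 16 in replicate 3. Of those of replicate 1, 14 overlapped an IDR peak of the gene, and of those of replicate 3, 15 did; 13 of replicate 1 overlapped 1 of replicate 3. Replicate 1 alone had a top region 35457 bp from the 5′ TSS, with a signal of 42.8, and one of 54.6 at 66190 bp. In steps of 10 kb from the 5′ TSS both lists fell from 4 and 5 summits in the first step to 0 between 50 and 60 kb. By these lists sbb was not first among genes. With 17 top regions tara was ahead in both, and Eip75B was level with tara in replicate 1.

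**Figure D3:**
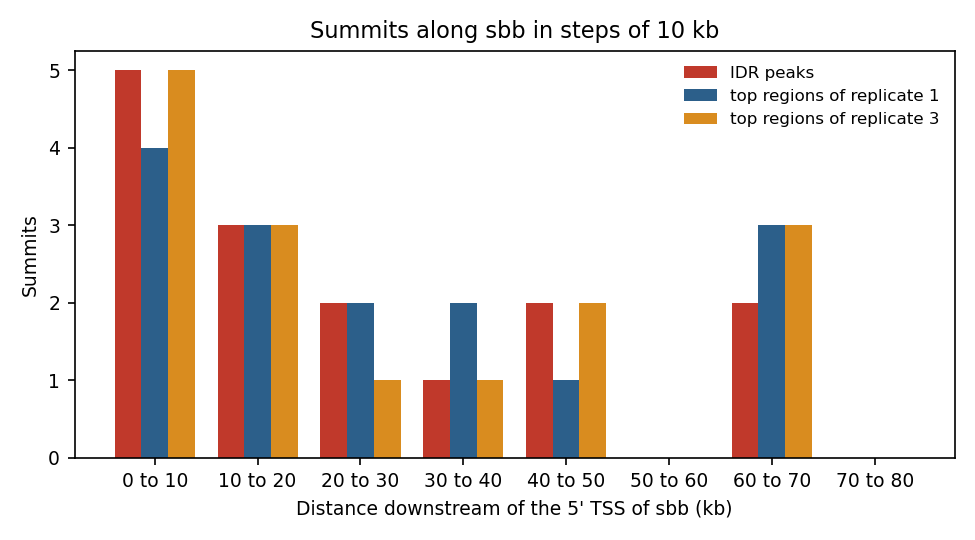
Number of summits (y axis) in steps of 10 kb downstream of the 5′ TSS of sbb (x axis) for the IDR peaks and for the 4492 highest regions of each replicate. The first step holds 5, 4 and 5 summits, the step from 50 to 60 kb holds 0 in all 3 lists, and the step of the internal promoter holds 2, 3 and 3.

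Weaker regions lay between the IDR peaks, with fewer toward the 3′ end of the gene. Besides the 16 IDR peaks, 53 pooled regions lay in the window, with a median pooled signal of 41.9 against 33.4 over all pooled regions below the threshold. Pooled summits numbered 7.74 per 10 kb of the window against 2.24 over the arms, and IDR summits 1.80 against 0.336. Between the first exon and the end of CG14505 there were 10.9 pooled summits per 10 kb, and 4.25 in the rest of the long intron. The 3′ exons had 1.72, and the longest gap between pooled summits was 10490 bp. Of the 69 pooled regions 23.2% (Wilson 95% interval 14.8 to 34.4%, counting error alone) were IDR peaks, against 15.0% of the whole list; the gene was chosen on this call, so nothing is read from the excess. The median pooled signal of the 16 IDR peaks was 134, against 116 over all IDR peaks, and 3 of the 16 were in the highest 10% of the list. Neighbouring IDR summits of sbb were a median of 2284 bp apart, against 8438 bp over all arms. A width below the common 410 bp was found in 7 of 16 IDR regions of sbb and in 16.2% of all. Of the 53 weaker regions 8 had their summit within 500 bp of an IDR summit.

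Many sites of sbb were far from any annotated start. Of the 69 pooled regions of the window, 42 (60.9%) lay over 5 kb from any TSS. Of its IDR summits 9 of 16 did, a share no higher than that of the window, against 8.35% of all IDR peaks. The next highest number of such IDR summits was 5 at Snoo, which encodes the Ski family corepressor of that name. It was followed by 4 at Antp, CG46458, Eip75B and PRAS40. Over 10 kb from any TSS there were 141 IDR summits in all, and sbb held 6 of them, the most of the 76 genes with such a summit. Among pooled regions over 5 kb from any TSS, 9 of the 42 in sbb were IDR peaks, or 21.4% (Wilson interval 11.7 to 35.9%), against 6.68% of all 5613 such regions. The far sites of sbb were not weak ones, with a median pooled signal of 138 against 107 over all IDR peaks at that distance. These counts rest on the IDR call that chose the gene and are given without a test.

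Genes of like span held far fewer Groucho summits. Among the 117 other protein-coding genes with a span within 20% of that of sbb, from 63.3 to 94.8 kb, the IDR count ran from 0 to 13 with a median of 1, and 41 of them had 0. The highest were u-shaped (ush), the gene of a Friend-of-GATA protein, with 13, bun, which encodes TSC22-like regulators, with 11, RapGAP1, a GTPase-activating protein gene, with 10, the nuclear receptor gene Hr4 with 9 and the AMPK subunit gene SNF4Agamma with 8. None of the 117 had more IDR summits per 10 kb than sbb; ush came closest, at 1.75 against 1.80. In pooled regions sbb was not the highest of these genes, since bun had 80 against its 69. The 71 genes whose longest intron was within 20% of 65.6 kb had a median of 0 IDR summits in that intron and at most 11, in CG1677, against 14 in sbb. A further comparison is with the 137 protein-coding genes longer than sbb, which had a median of 1 and a maximum of 13 IDR summits.

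**Figure D4:**
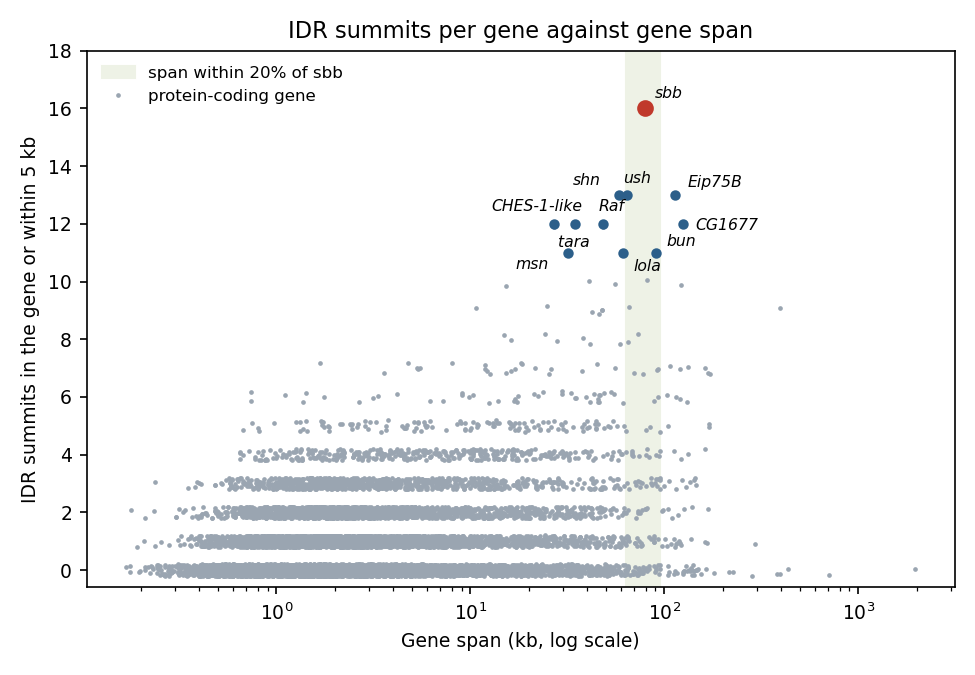
IDR summits in each of 13945 protein-coding genes or within 5 kb (y axis, grey points shifted up or down at random by less than 1 summit so that they do not hide each other) against gene span in kb (x axis, log scale), with genes within 20% of the span of sbb in the shaded band. The red point is sbb with 16, the blue points are the next 10 genes with 11 to 13, and most genes of like span lie at 0 to 3.

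The genes next in the order, except bun and lola, also had most of their sites away from promoters, and all 10 had fewer of them far from any start. Eip75B, an ecdysone-induced nuclear receptor gene, shn, which encodes a zinc-finger partner of Mad, and ush had 13 IDR summits each. CG1677, the forkhead gene CHES-1-like, the kinase gene Raf and tara had 12, and bun, the BTB zinc-finger gene lola and the kinase gene msn had 11. No TSS lay within 500 bp of 14 of the 16 summits of sbb, 11 of 13 in Eip75B and in shn, 9 of 13 in ush and 10 of 12 in tara; bun and lola had 5 of 11 such summits. Over 5 kb from any TSS lay 9 of 16 in sbb, 4 each in Eip75B and Raf, 3 each in tara, bun and msn, 1 each in ush and CG1677, and 0 in shn, CHES-1-like and lola. In shn the summits were a median of 896 bp apart over a window of 68.3 kb, closer than the 2284 bp of sbb over 89.1 kb. Per 10 kb of window, CHES-1-like had 3.24 IDR summits, tara 2.69, msn 2.64, Raf 2.05 and shn 1.90, above the 1.80 of sbb. The rest of the 10 were lower, from 0.891 in CG1677 to 1.75 in ush. The highest site of ush had a pooled signal of 1892 and that of shn 411, so sbb led in number and not in height. In pooled summits sbb was number 6, after Eip75B with 85, the translational repressor gene pum with 84, bun with 80, the cell adhesion gene kirre with 80 and Svil with 74. Cutting the arms into 1500 tiles as long as the sbb window gave a median of 2 IDR summits a tile, and 3 tiles held 16 or more.

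Of the motifs searched, the homeodomain core and the GAGA factor core were the most frequent at the sites of sbb. Sequence reaching 100 bp to either side of each summit was searched on both strands for 9 motifs, none of which contains another. The homeodomain core TAATTA was in 6 of 16 windows (37.5%), at sites 2, 3, 7, 12, 15 and 16, against 11.9% of all IDR windows and 13.3% of the pooled windows below the threshold. It was in 18.9% of the 53 sbb windows below the threshold and in 9.33% of IDR windows over 5 kb from any TSS. The GAGA factor core GAGAG was in 5 of 16 (31.2%) against 28.3% of all IDR windows. Its shares in the same 2 sets were 17.0% and 35.2%. The Tailless core AAGTCA was in 3 (18.8%) against 9.57%, and the Su(H) motif GTGGGAA was in 1, at site 12, against 2.47%. TATCGAT, the core bound by DREF, was in 0 of 16, while 12.6% of all IDR windows and 2.40% of those over 5 kb from any TSS held it. The cores CACGTG and CACGCG of Hairy and E(spl) proteins, which recruit Groucho, CAGGTAG of Zelda and TGTGGT of Runt were in 0 of 16, against 3.09%, 6.77%, 0.957% and 8.15% of all IDR windows. The 53 regions of sbb below the threshold held these cores in 1, 3, 0 and 5 windows. With 16 windows these shares have wide counting error, so nothing is read from their order or from a count of 0. A match is a string of letters and not a bound site. The GC content of the windows had a median of 41.0%, against 39.8% over all IDR windows. Sites 2, 3, 7 and 12, all with TAATTA, had the lowest GC of the 16, at 36.3, 37.8, 32.3 and 30.3%. Sites 15 and 16, also with it, had 43.8 and 42.8%. A part of base composition in the TAATTA share was not tested.

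Partners and targets of sbb from earlier work were listed together with other corepressor genes. Of these 12 genes 8 had an IDR summit in the gene or within 5 kb, against 49.4% of all protein-coding genes. Within 1 kb of their own TSS 6 had one, while Gug and Smr had 0 there. With 12 genes nothing is read from these shares or from a contrast between the classes. Of the partners, Gug, which encodes Atrophin, had 5, with the highest at 369 in the pooled list and 145 and 228 in replicates 1 and 3, and tll, which encodes Tailless, had 0. Of the targets, the gap genes Kr and kni and the pair-rule gene run had 0, which is also the median of all protein-coding genes. The target tkv had 1, within 1 kb of its own TSS, with a pooled signal of 94.9 and replicate signals of 47.3 and 51.3. Of the other corepressor genes Sin3A had 6, gro and ebi 4 each, Smr 3, and CtBP and HDAC1 2 each. The highest sites counted for ebi, HDAC1, Smr and Sin3A lay nearest to the TSS of another gene: AP-2alpha, Src64B, lncRNA:CR43963 and lncRNA:CR30055. The highest at gro, with a pooled signal of 682 and 303 and 373 in the replicates, lay at the gene that is tagged in this line.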

How the data were processed

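Regions from ChIP-seq of GFP-tagged Groucho in 2 replicates were analysed as deposited, in dm6. The manifest deposited with the files states that regions were called by the authors for each replicate against a control alignment and for both pooled, and that the optimal IDR list derives from those; the control was not analysed here. The aligner, caller and IDR threshold were not given in the sources used here. Column 7 holds the signal of each region that the authors deposited, and column 9 the −log10 of a q-value, which is at a maximum of 3.74 in 61.1% of IDR peaks (11 of 16 in sbb), so the signal was used for order. Depth is unknown, since no read counts are in these files. The dm3 lists were not used.

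Genes came from Ensembl release 115 (13945 protein-coding genes of the major arms) and sequence from RefSeq Release 6; 0 regions ran past an arm's end. Transposable elements were not counted as genes. A replicate value is that of the overlapping region (1 bp or more) with the nearest summit. Motif windows took 100 bp on each side of a summit. Python 3.11.15, pandas 2.3.3, numpy 2.4.6 and scipy 1.17.1 were used, and the counting steps were checked on simulated data. The members, gene lists and motifs were chosen with earlier results of these data known. Named were sbb, genes with a TSS in its window, the 10 genes with most IDR summits with ties and the 5 highest of like span. A list of 12 genes, linked to sbb or other corepressor genes, was also named. Snoo, Antp, CG46458, PRAS40, pum, kirre, Svil and the neighbours of those 12 genes were named after their values were seen. The alternatives were other flanks, lists, thresholds, TSS limits and span limits.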

Additional observations from a re-analysis of the deposited data

How the results depend on the processing

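Of 46 alternative values, 37 stayed within a set ratio of the main value and 9 moved. That ratio is wide. It takes in the fall from 16 to 11 IDR summits when IDR peaks of lower signal were left out. When close summits were joined, the falls from 69 to 50 pooled summits and from 16 to 15 IDR summits were within it too. A median spacing of 3335 bp without replicate 3, against 2284 bp, was also within it. The IDR count of 16 ran from 11, when IDR peaks of lower signal were left out, to 16, and was 15 in the gene body alone and 14 with summits nearest to another TSS within 1 kb left out, a setting chosen after seeing the data. sbb stayed first with any flank tried, with joined summits and with summits at TSSs of other genes left out. Its rank was 2 without replicate 1 and 3 without replicate 3, and 140 by summits per kb among genes with at least 5. That measure is led by short genes, but shn, Raf, msn, tara and CHES-1-like were also ahead of sbb by it. The median signal was 79.2 without replicate 1 and 67.6 without replicate 3, which are on the scale of 1 replicate. The median spacing was 4420 bp without the IDR peaks of lower signal, a setting with fewer sites. With a TSS limit of 250 bp, 1 summit was near a TSS of sbb and 1 near one of CG14502 alone; with 1000 bp, 1 was near CG14502 alone. The median of genes of like span was 1 under each limit tried. No paired analysis was possible because the series holds 1 group. With 2 replicates and no read counts, the error of a single site rests on 2 values.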
